A study of Homo sapiens and Mus musculus with 13 samples.

Results

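SLIT2, EBF3, PAX6, SIX3, SIX2 and TP73 are 6 developmental genes whose NT2 hybrid peaks formed runs with no counterpart in the list made with RNase A. The untreated list in which the runs were seen is called digest A, after its restriction enzymes. The genes were chosen by that property, so the contrast between the RNase A and digest A lists is a description here and supports nothing. Each gene was taken by its span on hg19 with 20 kb on either side, and every human list was read in these windows. Together the windows held 9 of 59825 RNase A peaks, 1 of 8998 RNase H peaks, 66 of 49331 digest B peaks, 110 of 88310 DRIPc peaks, 12 of 51445 K562 peaks and 112 of 67126 digest A peaks.

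The lists come from NT2, a line of pluripotent cells from a human embryonal carcinoma, and from K562, a human leukaemia line. DRIP-seq recovers RNA:DNA hybrids from cut genomic DNA with an antibody and sequences the DNA without strand, whereas DRIPc-seq sequences the RNA of the hybrid and so gives a strand. The groups were NT2 material given RNase A, NT2 material given RNase H, NT2 DNA cut with BamHI, NcoI, ApaL1, NheI and PvuII (digest B), DRIPc-seq of NT2, DRIP-seq of K562, and NT2 DNA cut with HindIII, EcoRI, BsrGI, XbaI and SspI (digest A). All lists except digest B used the digest A enzymes, and no genotype, dose or time is given. Each list is 1 sample, except DRIPc-seq, where 1 list stands for 2 samples, so no value below has a replicate check and no p-value was computed. The lists carry no read counts, depth is unknown, and a gene without a peak is a gene at which none was called. In these bulk lists, hybrids in fewer cells and less hybrid per cell cannot be told apart.

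An R-loop forms when a transcript pairs with its DNA template and leaves the other DNA strand free. Such hybrids are known from GC-rich gene starts where the transcript is rich in G, and from gene ends. RNase H cuts RNA that is paired with DNA, and RNase A cuts unpaired RNA. SLIT2 is a secreted ligand that repels growing axons through ROBO receptors. The other members encode transcription factors: EBF3 acts in neuronal differentiation, PAX6 and SIX3 in the eye and forebrain, SIX2 in kidney progenitors, and TP73, a relative of p53, in neural development and ciliated cells. Many developmental regulators of this kind are held silent or poised by Polycomb complexes in pluripotent cells.

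Promoter sequences were found for 5 of the 6 genes in RefSeq on GRCh38.p14 and run from 250 bases before to 50 after a start. SIX3 has no entry. Those of SLIT2, PAX6 and EBF3 are shown because SLIT2 was the only start of the 6 under an RNase A peak, PAX6 the only start under a K562 peak, and EBF3 the start of a gene whose DRIPc peaks were all on its own strand. They are on another build than the peaks, so no peak was placed on them. Their starts were not matched to those of the hg19 spans and may differ from them. For genes with several starts, the outermost was used. Capitals mark runs of 3 or more G on the strand of the gene.
SLIT2, chr4:20251655-20251954, plus strand: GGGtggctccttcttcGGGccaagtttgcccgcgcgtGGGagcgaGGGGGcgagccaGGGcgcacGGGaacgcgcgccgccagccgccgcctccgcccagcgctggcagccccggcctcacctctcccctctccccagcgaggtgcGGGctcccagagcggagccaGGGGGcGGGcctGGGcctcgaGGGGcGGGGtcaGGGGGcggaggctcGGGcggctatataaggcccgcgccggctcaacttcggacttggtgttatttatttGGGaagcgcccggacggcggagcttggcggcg
PAX6, chr11:31817912-31818211, minus strand: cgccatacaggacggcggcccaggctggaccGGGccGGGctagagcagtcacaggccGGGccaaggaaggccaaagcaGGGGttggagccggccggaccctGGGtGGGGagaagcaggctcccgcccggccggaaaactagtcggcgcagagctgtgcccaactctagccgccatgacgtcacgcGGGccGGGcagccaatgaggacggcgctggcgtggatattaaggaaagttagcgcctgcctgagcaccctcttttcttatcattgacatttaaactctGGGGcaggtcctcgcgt
EBF3, chr10:129964225-129964524, minus strand: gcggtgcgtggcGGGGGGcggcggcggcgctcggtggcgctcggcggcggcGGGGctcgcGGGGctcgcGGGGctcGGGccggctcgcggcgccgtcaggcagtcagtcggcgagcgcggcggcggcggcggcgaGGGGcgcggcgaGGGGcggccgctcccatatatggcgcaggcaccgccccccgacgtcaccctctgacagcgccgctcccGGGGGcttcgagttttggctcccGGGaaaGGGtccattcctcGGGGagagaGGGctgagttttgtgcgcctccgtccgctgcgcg

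The promoter sequences differed in base composition. The EBF3 promoter had 78.7% G and C, more than 96.0% of the 35116 promoters in the table, and 52 CpG dinucleotides against a median of 14. That of TP73 also had 78.7%, with 49 CpG, and that of SLIT2 had 74.3%, with 36 CpG. PAX6 (64.7%) and SIX2 (64.0%) lay nearer to the median of 58.7%. The excess of G over C on the strand of the gene, as (G-C)/(G+C), was 0.15 at EBF3, 0.09 at SLIT2, 0.08 at PAX6 and 0.07 at SIX2, against a median of 0.01. At TP73 it was -0.08, so C outnumbered G there. Runs of GGG or longer numbered 15 at SLIT2, 12 at EBF3, 9 at PAX6, 8 at SIX2 and 7 at TP73, and 96.7% of all promoters held at least 1. Counted as CCC on the same strand, the runs numbered 8, 5, 6, 6 and 18 in the same genes, and 96.2% of all promoters held at least 1.

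SLIT2 spans 367.3 kb on chromosome 4, from 20254883 to 20622184, on the plus strand. The RNase A list held a single peak in its window, from 0.57 kb before to 1.27 kb after the start. The RNase H and K562 lists held none. Digest B had 28 peaks covering 128.3 kb, DRIPc had 51 peaks covering 236.7 kb, and digest A had 49 peaks covering 58.6 kb. The gene was thus lined with peaks in the 3 untreated NT2 lists and bare in the others, except for the RNase A peak at its start. Of the 49 digest A peaks, 39 touched a digest B peak and 43 a DRIPc peak, and 47 touched at least 1 of these. Most digest A peaks were short, with a median of 910 bp, and the longest, 6.26 kb, lay over the start, where the RNase A peak was.

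Hybrid RNA at SLIT2 followed the direction of the gene. DRIPc peaks on the plus strand covered 226.1 kb of the gene, or 61.5% of its length, and those on the minus strand covered 2.57 kb. The only minus strand peak ran from 1.51 kb before to 2.57 kb after the start, and a plus strand peak ran from 1.28 kb before to 2.50 kb after it. The start thus carried both strands and the rest of the window 1. In 4 equal parts of the gene from its start on, DRIPc peaks covered 89.8%, 73.4%, 46.8% and 36.3% of the length. Digest B covered 41.4%, 39.0%, 21.3% and 20.5% of the same parts, and digest A 17.8%, 14.4%, 10.3% and 14.5%. DRIPc and digest B cover thus declined from each part to the next, and digest A cover did so up to the third part.

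EBF3 spans 128.6 kb on chromosome 10, from 131633496 to 131762091, on the minus strand. It had no peak in the RNase A, RNase H or K562 lists, and the nearest RNase A peak lay 54.3 kb from the gene. Digest B held 11 peaks covering 75.8 kb, DRIPc 17 peaks covering 60.8 kb and digest A 28 peaks covering 24.96 kb. All 28 digest A peaks lay inside the gene, between 0.12 and 125.45 kb from its start, and none reached the start itself. A digest B peak ran from 2.89 kb before to 5.12 kb after it. All 17 DRIPc peaks were on the minus strand, the strand of the gene, and none lay in either flank. DRIPc covered 33.0%, 24.1%, 51.5% and 80.4% of the 4 equal parts from the start on, so DRIPc cover was highest in the last, unlike SLIT2. The DRIP-seq lists did not share this. Digest B covered 72.6%, 41.9%, 59.8% and 52.4% of the same parts, highest in the first. Digest A covered 18.4%, 24.5%, 17.8% and 17.0%, lowest in the last.

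**Figure D1:**
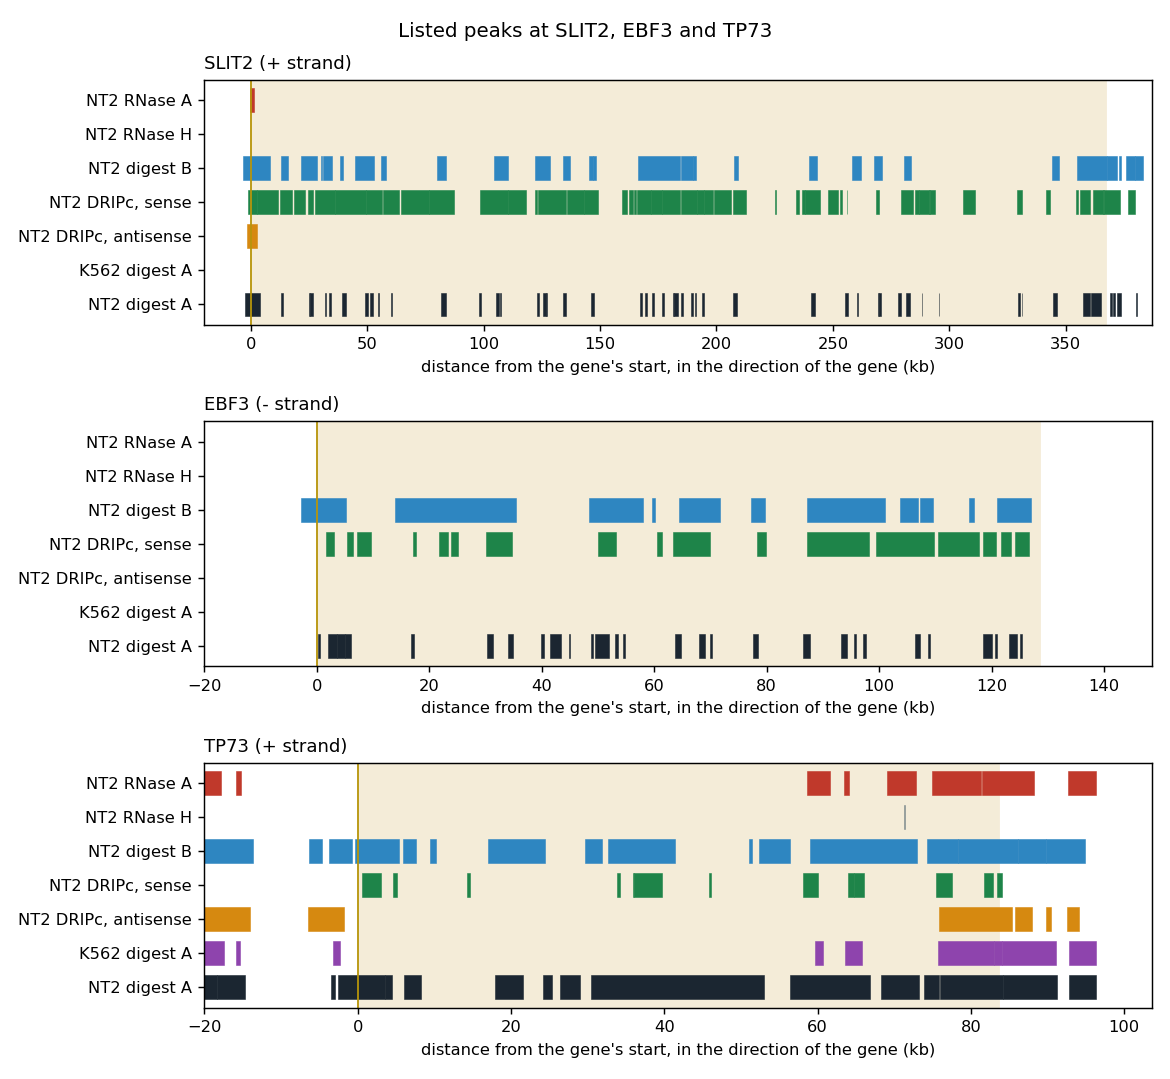
Peaks of each list at SLIT2, EBF3 and TP73 by distance from the gene's start in kb along the gene, with the gene shaded and 20 kb on either side. Bars are listed peaks, and DRIPc peaks are split by strand. SLIT2 has 1 RNase A peak, at its start, EBF3 has none, and TP73 has 8, outside the stretch after its start.

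PAX6 spans 33.2 kb on chromosome 11, from 31806340 to 31839509, on the minus strand. The RNase A and RNase H lists held no peak in its window, and the nearest lay 269.7 and 269.6 kb from the gene. Digest B held 6 peaks covering 31.0 kb, DRIPc 15 peaks covering 30.2 kb, K562 3 peaks covering 0.943 kb and digest A 15 peaks covering 26.6 kb. PAX6 was thus densely covered in NT2, with 66.5% of the gene under digest B peaks, 54.4% under DRIPc peaks and 64.9% under digest A peaks. The K562 peaks were short and close to the start: one ran from 0.01 kb before to 0.44 kb after it, and the others ended 2.15 and 2.46 kb after it. All 15 digest A peaks touched a digest B peak, 11 a DRIPc peak and 2 a K562 peak.

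Hybrids were mapped on both strands at PAX6. Within the gene, 14.8 kb lay under DRIPc peaks of the minus strand, the strand of PAX6, and 6.67 kb under those of the plus strand. Upstream, 7.79 kb was under plus strand peaks and none under minus strand peaks, with the longest peak, 6.41 kb, ending 1.24 kb before the start. Over the whole window 47.0% of the DRIPc length was on the strand of the gene, against 68.9% within the gene. In RefSeq on GRCh38.p14 the lncRNAs PAX6-AS1, which overlaps PAX6, and PAUPAR, upstream of it, are annotated on the plus strand, as is ELP4, whose end overlaps that of PAX6.

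SIX3 and SIX2 are homeobox genes 59.1 kb apart on chromosome 2, SIX3 from 45169037 to 45173216 on the plus strand and SIX2 from 45232324 to 45236542 on the minus strand. Neither window held an RNase A, RNase H or K562 peak. The nearest RNase A peak lay 594.5 kb from SIX3 and 531.2 kb from SIX2, and the nearest K562 peak 438.6 and 375.3 kb away. At SIX3, digest B held 3 peaks covering 22.0 kb, DRIPc 7 peaks covering 24.5 kb and digest A 2 peaks covering 14.4 kb. At SIX2, digest B held 2 peaks covering 8.93 kb, DRIPc a single peak of 5.72 kb and digest A 2 peaks covering 6.24 kb. The longest digest A peak at SIX3, 13.3 kb, covered the whole gene, from 1.39 kb before its start to 11.86 kb after it.

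Hybrid RNA at SIX3 was mapped on its own strand in the gene and on both strands upstream. DRIPc peaks on the plus strand covered 92.1% of the gene, and the longest, 13.7 kb, ran on to 14.22 kb after the start. Upstream, plus strand peaks covered 6.99 kb and minus strand peaks 5.25 kb, and the minus strand ones all lay between 3.65 and 11.63 kb before the start. The strands overlapped there, since 1 plus strand peak ran from 6.99 kb before to 0.22 kb after the start. RefSeq on GRCh38.p14 annotates 2 lncRNAs on the minus strand, SIX3-AS1, which overlaps SIX3, and LINC01833, upstream of it. At SIX2 the only DRIPc peak was on the minus strand, its own, from 0.40 to 6.12 kb after the start, and covered 90.5% of the gene.

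**Figure D2:**
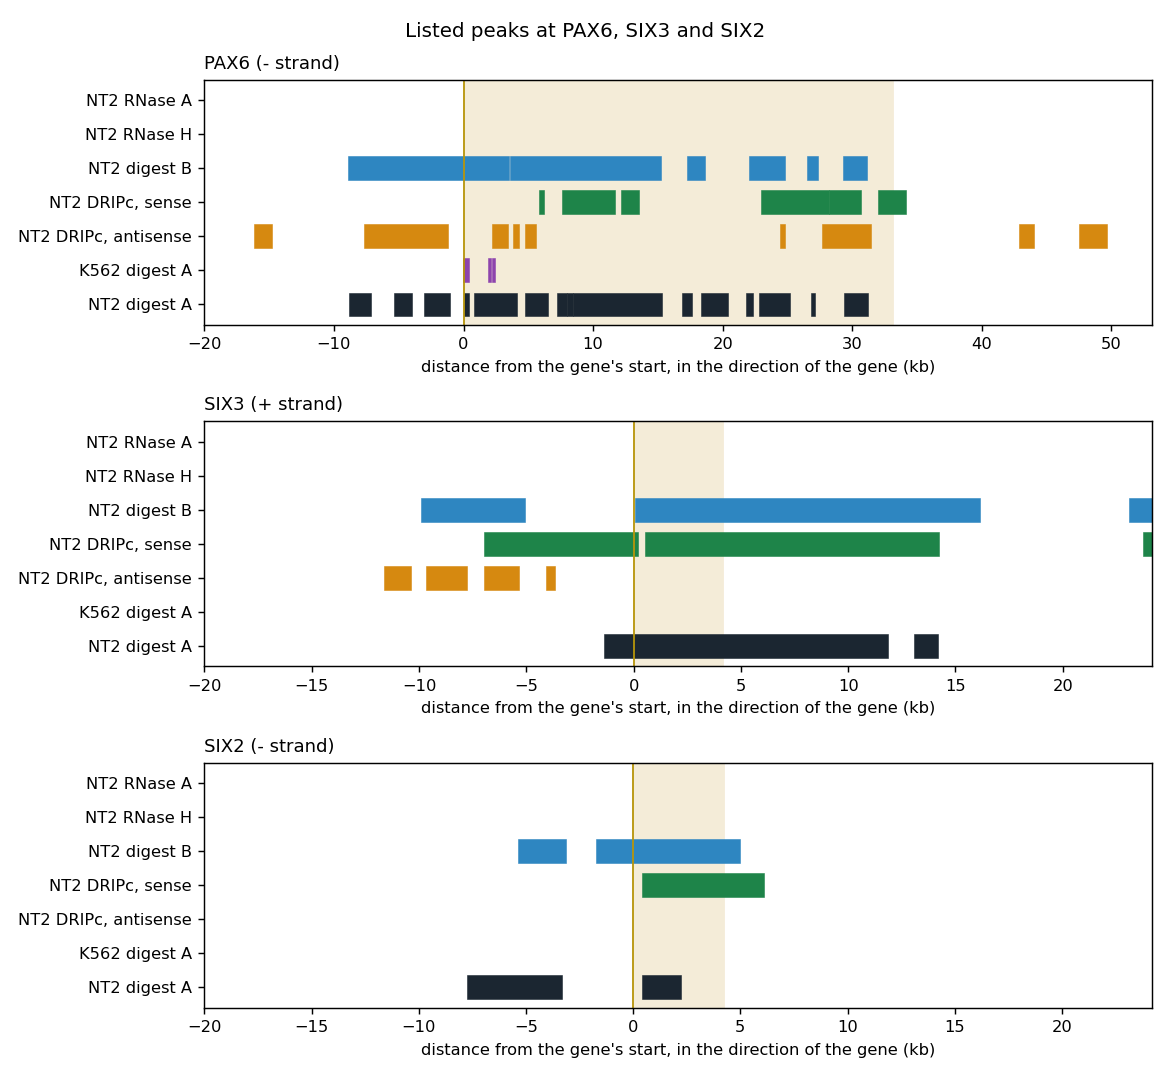
Peaks of each list at PAX6, SIX3 and SIX2 by distance from the gene's start in kb along the gene, drawn as for the longer genes. None of the 3 windows has an RNase A or RNase H peak, and PAX6 alone of them has K562 peaks, 3 within 2.46 kb of its start.

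TP73 spans 83.7 kb on chromosome 1, from 3569084 to 3652765, on the plus strand, and goes against the label under which the genes were grouped. The RNase A list held 8 peaks in its window, covering 27.3 kb, and the RNase H list a single peak of 0.175 kb. Digest B held 16 peaks covering 76.6 kb, DRIPc 19 peaks covering 36.8 kb, K562 9 peaks covering 26.2 kb and digest A 16 peaks covering 81.3 kb. Of the 16 digest A peaks, 8 touched an RNase A peak. TP73 was therefore split, with its first part bare in the RNase A list and its last part covered.

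The bare part of TP73 ran over 8 digest A peaks from 3.43 kb before the start to 53.06 kb after it. It included the longest digest A peak of all 6 windows, 22.7 kb, from 30.37 to 53.06 kb after the start. RNase A peaks resumed at 58.57 kb and covered 14.3% of the third of 4 equal parts of the gene and 63.4% of the fourth, against 84.3% and 89.3% for digest A. K562 peaks were placed alike: they covered 5.24% of the third part, 48.4% of the fourth and nothing of the first and the second. Of the 8 digest A peaks found after RNase A, 7 also touched a K562 peak, and of the 8 others 2 did. One of these lay before the start of the gene and the other over it.

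DRIPc peaks at TP73 also divided by strand. Within the gene, 15.4 kb was on the plus strand, its own, in 13 peaks, and 7.79 kb on the minus strand in a single peak of 9.43 kb that crosses the gene's end. Upstream, 10.7 kb was under minus strand peaks and none under plus strand peaks, and downstream 0.342 kb was on the plus and 6.08 kb on the minus strand. RefSeq on GRCh38.p14 places WRAP73 upstream, on the minus strand, and annotates antisense lncRNAs of TP73 on that strand. Each RNase A and K562 peak that reached into a flank touched a minus strand DRIPc peak.

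**Figure D3:**
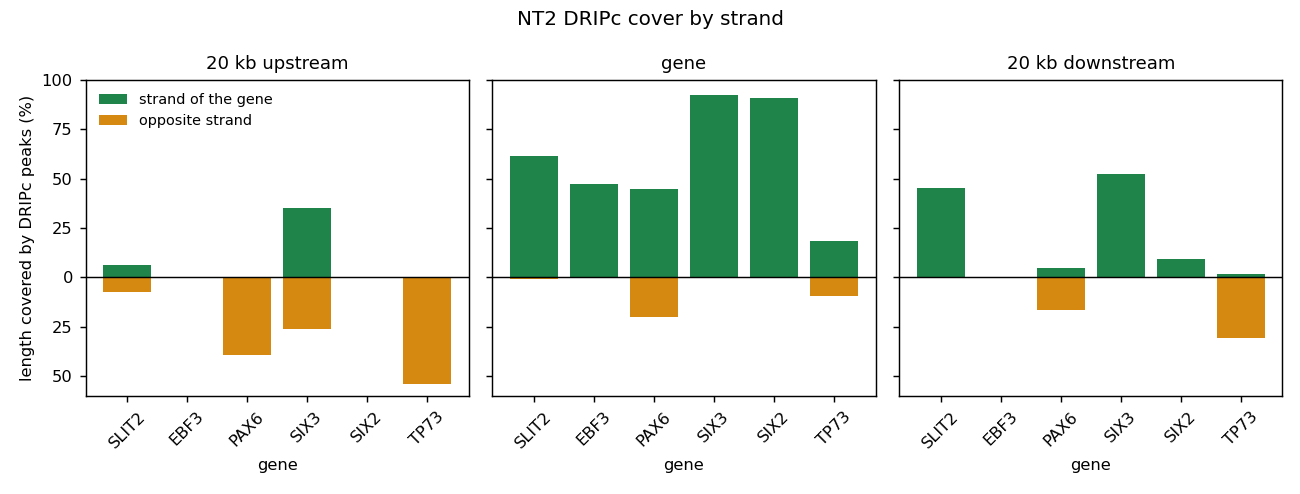
Percent of each region covered by NT2 DRIPc peaks on the strand of the gene (upwards) and on the opposite strand (downwards), for 20 kb upstream, the gene and 20 kb downstream. Within the gene the own strand is the longer in all 6, and no opposite strand is covered at EBF3, SIX3 and SIX2.

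Over the 6 genes, the DRIPc length within the gene was on the strand of the gene for 95.02%, with 324.7 kb against 17.0 kb on the opposite strand, and SLIT2 alone gave 226.1 kb of it. The share was 98.9% at SLIT2, 100% at EBF3, SIX3 and SIX2, 68.9% at PAX6 and 66.4% at TP73. In the 20 kb upstream the genes differed: PAX6 and TP73 had only the opposite strand, with 7.79 and 10.7 kb, SIX3 had 6.99 kb on its own and 5.25 kb on the opposite strand, SLIT2 had 1.28 and 1.51 kb, and EBF3 and SIX2 had none. Of the 98 digest A peaks that touch the genes, 68 touched DRIPc peaks of the gene's strand only, 1 of the opposite strand only, 6 of both and 23 of neither.

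The lists were then compared over all 6 windows, with the share in the whole digest A list beside each. Of the 112 digest A peaks, 9 touched an RNase A peak (8.04%, exact Clopper-Pearson 95% interval 3.74 to 14.7%), against 65.5% of all digest A peaks. The other 103 touched none, against 34.5% of all. Both follow from how the genes were chosen. A single peak (0.893%) touched an RNase H peak, against 5.09% of all. Outside the windows, 1.1% of digest A peaks without an RNase A peak touched one, and 7.19% of those with an RNase A peak did. The low RNase H share is therefore not free of the choice of genes either. Intervals cover counting error only, and neighbouring peaks of a gene are not independent.

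Lists that the choice did not use gave a mixed picture. Digest B touched 96 of the 112 peaks, or 85.7% (77.8 to 91.6%), against 76.8% of all digest A peaks, and DRIPc touched 87, or 77.7% (68.8 to 85.0%), against 61.4%. K562 touched 11, or 9.82% (5.01 to 16.9%), against 54.7% of all. The windows thus stood above the whole list in digest B and DRIPc and far below it in K562. None of these shares is free of the choice of genes. Outside the windows, K562 touched 28.4% of digest A peaks without an RNase A peak and 68.7% of those with one. For digest B these shares were 60.6% and 85.3%, and for DRIPc 51.9% and 66.4%. Among window peaks without an RNase A peak, digest B touched 84.5% and DRIPc 76.7%. Among the longest 50% of the peaks of each list, digest B touched 76.5% in the windows, against 77.3% of the whole list. Most of the digest A peaks touched by K562 or by RNase A peaks were at TP73. Without it, 2 of 96 digest A peaks touched a K562 peak (2.08%) and 1 of 96 an RNase A peak (1.04%). Without SLIT2, the K562 share was 17.5%.

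**Figure D4:**
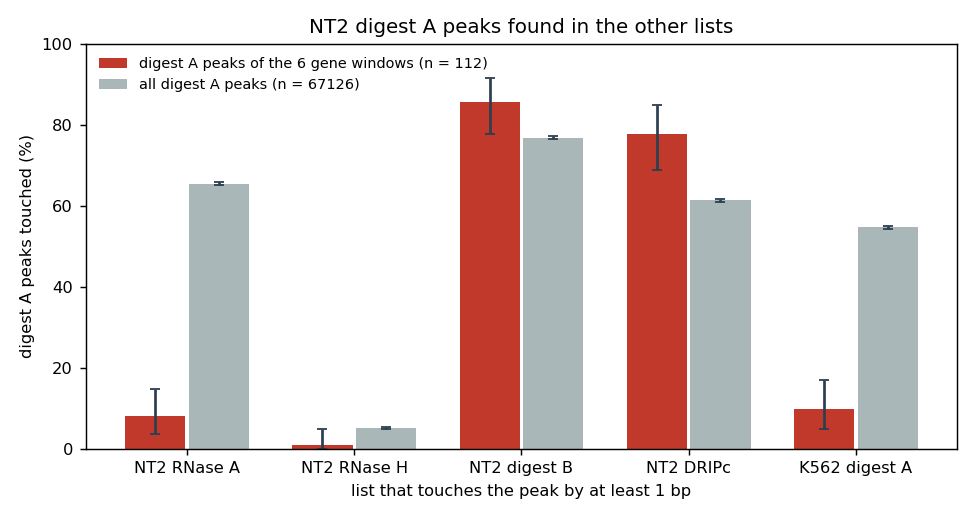
Percent of NT2 digest A peaks touched by at least 1 bp of each other list, for the 112 peaks of the 6 windows and for all 67126, with exact 95% intervals for counting error. The windows are low in the RNase A (8.04%, chosen for it), RNase H and K562 lists, and at 85.7% and 77.7% in digest B and DRIPc. RNase H, digest B, DRIPc and K562 shares differ between digest A peaks with and without an RNase A peak, so the choice bears on them too.

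Absence from RNase A and absence from K562 went together across the whole list. Among all digest A peaks without an RNase A peak, 28.3% touched a K562 peak, and among those with one, 68.7% did. In the windows the counts were 4 of 103 and 7 of 9. Of the 103 window peaks without an RNase A peak, 97 (94.2%) touched a digest B or a DRIPc peak, against 73.7% of such peaks elsewhere. Length moved with these shares: window peaks without an RNase A peak had a median of 992 bp and those with one 4921 bp, against 643 and 1707 bp elsewhere. The part of length in the shares was not tested. Since the windows were chosen for few RNase A peaks, low RNase A shares among the other lists' peaks there were fixed as well. They are given as a description only, with an RNase A peak at 7 of 66 digest B peaks (10.6%, against 60.3% of all) and at 11 of 110 DRIPc peaks (10%, against 39.8% of all). A K562 peak was at 8 of 66 digest B peaks (12.1%, against 50.4% of all) and at 13 of 110 DRIPc peaks (11.8%, against 32% of all). Since absence from RNase A and from K562 went together, the choice bears on these K562 values as well.

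Runs were counted as digest A peaks that follow each other on a chromosome with none touched by an RNase A peak. The genes were chosen for such runs, so the size and rank of their runs are a description only. The digest A list held 10396 such runs, of which 185 had at least 10 peaks and 17 at least 20. The run at SLIT2 held 48 peaks over 367.7 kb, more than any other in the list, and that at EBF3 held 28 over 125.3 kb, the third in rank. At PAX6 the run had 18 peaks over 317.7 kb, of which 3 lay beyond the window, and at TP73 it had 8 over 56.5 kb, a size reached by 366 runs. SIX3 and SIX2 shared 1 run of 20 peaks over 1239 kb, 16 of them outside both windows. The run at EBF3 was thus dense within its gene. That at SLIT2 was dense from 12.83 to 380.49 kb after the start, which is past the gene's end. The run at SIX3 and SIX2 was spread over a long stretch. The order of the runs by size belongs to digest A: read from digest B peaks, the runs held 27 peaks at SLIT2, 27 at SIX3 and SIX2, 15 at PAX6, 11 at EBF3 and 10 at TP73.

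**Figure D5:**
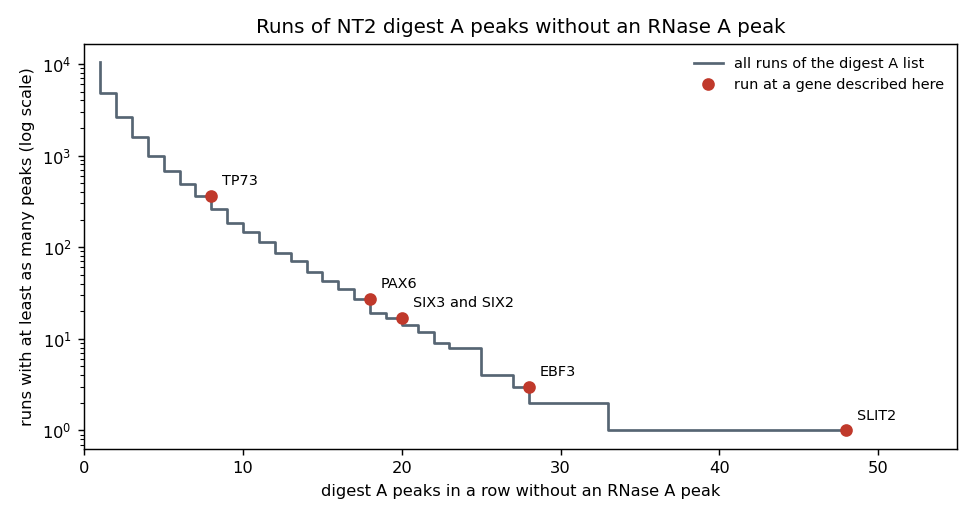
Number of runs in the digest A list with at least as many peaks (log scale) against the number of digest A peaks in a row without an RNase A peak. Points mark the runs at the 6 genes, from 8 peaks at TP73 to 48 at SLIT2, which no other run reaches. The genes were chosen for such runs.

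The 5 longest runs elsewhere were the most alike by number of peaks. They lay on chromosome 7 from 26438797 to 27561653 (33 peaks), chromosome 14 from 70351977 to 70502839 (27 peaks), chromosome 1 from 60346974 to 61771586, chromosome 10 from 112350450 to 112794208 and chromosome 1 from 5927484 to 6233691 (25 peaks each). K562 peaks touched 2 of 33, 0 of 27, 6 of 25, 7 of 25 and 19 of 25 of their peaks in that order, and 0 of 48 at SLIT2, 0 of 28 at EBF3, 3 of 18 at PAX6, 6 of 20 at SIX3 and SIX2 and 2 of 8 at TP73. RNase A peaks that touch no digest A peak lay inside the first (2) and the third (4) of these runs, and inside none of the runs at the 6 genes. Absence from K562 was therefore not shared by all long runs, nor by all runs at the 6 genes. Over the 181 other runs of at least 10 peaks, 19.95% of the 2436 peaks touched a K562 peak, 66.9% a digest B peak and 64.6% a DRIPc peak.

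Of peaks near the 20 kb limit, the nearest RNase A peak outside it lay 22.1 kb from TP73, 53.6 kb from SLIT2 and 54.3 kb from EBF3, and the farthest one inside it 17.8 kb from TP73. For digest A at TP73, the farthest peak inside lay 18.4 kb and the nearest outside 20.3 kb from the gene. At SIX3, digest B and DRIPc peaks lay just inside, 18.9 and 19.6 kb from the gene, and the next ones 58.3 and 57.2 kb from it. The starts of the genes lay under a peak at 1 of the 6 genes in the RNase A list (SLIT2), at none in the RNase H list, at 5 in digest B, at 2 in DRIPc (SLIT2 and SIX3), at 1 in K562 (PAX6) and at 3 in digest A (SLIT2, SIX3 and TP73).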

How the data were processed

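The 6 human peak lists were used; mouse lists and the other assays of the series were not analysed here. As deposited by the authors, they hold the start and end of each peak in base pairs, with a strand for DRIPc-seq and no height, fold or p-value. The submitters' processing notes name Bismark 0.7.7, BWA 0.6.1 and TopHat2 2.0.5 with no role for each, and hg19 among the builds. Peaks were called by a program and at a threshold not given in the sources used here.

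Samples were grouped by cell line, assay, digest and RNase treatment, per the labels. Positions are counted from 1 on hg19. Gene spans came with the choice of the genes and were used as given; strands are those of RefSeq, and of common knowledge for SIX3. A peak belongs to a window if any base does, lengths covered are clipped to the window, and peaks touch if they share at least 1 bp, strand ignored. Where peaks run past a window, their full span is printed. Names of neighbours come from RefSeq on GRCh38.p14 without coordinates, and gene families were not placed, since no hg19 annotation was used. The rule for named regions took the 6 genes, their runs and the 5 longest runs elsewhere. The genes and comparisons were chosen with earlier results of these data known. Functions were tested on simulated intervals, and shared counts equalled those of bedtools 2.31.1. Scripts ran in Python 3.11.15 with scipy 1.17.1, pandas 2.3.3, numpy 2.4.6 and matplotlib 3.10.9. Alternatives changed the flank, the overlap, merging, the list read and the genes included.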

Additional observations from a re-analysis of the deposited data

How the results depend on the processing

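No paired analysis was possible because each group has 1 list and both DRIPc-seq samples are in the same list. Of 155 values under alternative settings, 90 on the 6 genes together and 41 on single genes were counted as unmoved. Shares of digest A peaks had to stay within the exact interval of the reported share for this, and other values within 1.5 times the reported one. With 50 kb on either side, the windows held 14.8 RNase A and 16.4 K562 peaks per 100 digest A peaks, against 8.04 and 10.7 as reported. In base pairs per 100 of digest A the values were 13.7 for RNase A, 0.0825 for RNase H, 161.4 for digest B and 186.01 for DRIPc, against 8.04, 0.893, 58.9 and 98.2 peaks. With the longest 50% of each list, 17.6% of digest A peaks touched an RNase A peak (64.9% of the whole list), 0% an RNase H peak (4.82%) and 76.5% a digest B peak (77.3%), so digest B no longer stood above the list. With at least 50% of a peak covered, the shares were 0% for RNase H (3.01% of the whole list), 77.7% for digest B (68.2%) and 66.1% for DRIPc (46.8%). Leaving out each gene in turn gave 1.04 to 12.7% for RNase A, 0 to 1.59% for RNase H, 83.5 to 90.5% for digest B, 69.8 to 80.2% for DRIPc and 2.08 to 17.5% for K562. Read from digest B, the longest run held 27 peaks, against 48, and EBF3 11, against 28; with peaks within 1 kb merged PAX6 had 10, against 18. The share of DRIPc length on the strand of the gene was 95.02% without flanks and 92.01% with 5 kb, against 87.3% with 20 kb. It fell to 81.2% with 50 kb, and by peaks in place of length it was 81.8%. Among single genes the share was 66.4% without flanks and 68.4% by peaks at TP73 (39.0% by length with 20 kb), 42.9% by peaks at SIX3 (80.2%) and 52.2% with 50 kb at SIX2 (100%). Joining peaks 1 bp apart was added after the data were seen and moved no value by this measure. Depth is unknown, so a peak that was not called cannot be told apart from a peak that is absent.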

Other observations

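Some peaks of a list lay 1 bp apart. In the whole lists there were 4682 such pairs among 49331 digest B peaks and 3795 among 67126 digest A peaks. DRIPc had 7349 within a strand among 88310 peaks. In the 6 windows there were no such pairs in the RNase A, RNase H and K562 lists, which hold few peaks there, 6 in digest B, 15 within a strand in DRIPc and 4 in digest A. Of the 110 DRIPc peaks in the windows, 26 touched no peak of digest A or digest B (23.6%, against 41.7% of all DRIPc peaks). Of the 66 digest B peaks, 9 touched no digest A peak (13.6%, against 29.1% of all digest B peaks). Each of the 12 K562 peaks in the windows lay on at least 1 digest A peak, as did 67.3% of all K562 peaks. An RNase A peak was touched by 8 of the 12 (66.7%, exact interval 34.9 to 90.1%), against 63.0% of all K562 peaks. All 8 were among the 9 K562 peaks at TP73. The 3 K562 peaks at PAX6 touched no RNase A peak, and the other genes held no K562 peak. The pooled share thus describes neither gene.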
